A study of Drosophila melanogaster with 3 samples.

Results

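Binding of the tagged protein Eagle (gene eg) was examined at 10 orphan nuclear receptor genes of the fly: Hnf4, ERR, Hr38, Hr78, Hr96, svp, tll, dsf, Hr51 and Hr83. They were found by symbol in the Ensembl annotation. Of 21 nuclear receptor genes considered, these are left once others commonly placed in the ecdysone cascade and the knirps family are set aside. Eagle belongs to the knirps family. The grouping is not strict, since Hr38 and Hr78 are also tied to the response to steroid hormone. Orphan is used below as a label for these 10 genes, and says nothing of the ligands of the others. For each of the 10 genes, peaks of the conservative series list were taken whose summit lay in the gene body or within 10 kb of it. The set is 10 of 13945 protein-coding genes, and the rule gave 23 of 9369 peaks on the main chromosome arms, at 9 of the 10. The data came from ChIP-seq (chromatin immunoprecipitation and sequencing of the bound DNA) on whole prepupae labelled eg-GFP, aged 2 days, which carried an insertion for an Eagle fusion with eGFP that was pulled down through the tag. All 3 biological replicates belonged to this 1 group, and no other genotype or untagged animal was analysed here, so nothing was compared between conditions. The deposited files are peak lists without read counts. A thresholded list keeps the peaks whose rank repeats well between analyses (a low irreproducible discovery rate), a ranked list is the longer one before that threshold, and the conservative list is the thresholded series list so named by the authors. The signal of a peak is the authors' measure of its strength, a number without unit, and its summit is the single base where the peak is highest. Which regulatory DNA drives the fusion protein is not stated in the labels. Whole animals mix all tissues, so binding in few cells and weak binding in many cannot be told apart.

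Nuclear receptors are transcription factors with a zinc-finger domain that binds DNA and, in most members, a pocket for a small lipid-like ligand. Those called orphan were found without a known ligand. In flies, several members of the present set adjust metabolism (Hnf4, ERR, Hr96), several act in the nervous system or in embryonic patterning (svp, tll, dsf, Hr51), and Hr38 and Hr78 are tied to the response to steroid hormone.

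DNA at the strongest peak of 5 of the 6 genes with a peak in all 3 replicate lists is shown first, because the results turn on these sites. Letters are credited to RefSeq (release 6 genome, dm6) and written 5′ to 3′ on the strand of the receptor gene. Capitals mark TATTTAT on either strand, the only one of 7 motifs searched that occurred in them. For Hr96 the whole stretch between its start and the start of the neighbour that runs the other way is shown (chr3R:25025018-25025234, plus strand). This stretch was chosen after its values had been seen. For Hr38 (chr2L:20721589-20721689, minus strand), svp (chr3R:12297370-12297470, plus strand) and Hnf4 (chr2L:8717764-8717864, minus strand) the summit and 50 bp on each side are shown. For Hr78 only 44 bp beside the summit are shown (chr3L:21497099-21497142, minus strand), because the rest holds annotated untranslated sequence.
Hr96 to EMC6: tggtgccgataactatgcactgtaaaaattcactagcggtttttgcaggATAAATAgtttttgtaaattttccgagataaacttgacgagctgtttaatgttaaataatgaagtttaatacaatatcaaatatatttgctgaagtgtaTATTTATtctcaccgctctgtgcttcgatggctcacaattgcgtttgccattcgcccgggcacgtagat
Hr38 upstream: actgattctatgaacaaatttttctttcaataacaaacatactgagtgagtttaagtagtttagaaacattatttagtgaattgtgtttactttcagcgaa
svp intron: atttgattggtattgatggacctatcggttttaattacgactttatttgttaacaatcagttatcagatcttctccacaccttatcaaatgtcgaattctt
Hnf4 upstream: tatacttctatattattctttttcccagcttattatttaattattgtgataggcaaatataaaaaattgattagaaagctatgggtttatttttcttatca
Hr78 beside summit: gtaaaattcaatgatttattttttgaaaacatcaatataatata

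Of the 10 genes, 9 had at least 1 conservative summit in the gene body or within 10 kb, where 70.4% of all protein-coding genes had one. At 6 genes (Hnf4, ERR, Hr38, Hr78, Hr96 and svp) at least 1 such peak was overlapped in the thresholded lists of all 3 replicates, against 51.3% of all protein-coding genes. Hnf4 is counted only through peaks that lie upstream in an intron of the neighbouring gene raw. The number of summits ran from 0 at Hr51 to 6 at Hr38 with a median of 2.00 per gene, and the median over all protein-coding genes was also 2.00. In the windows there were 0.690 summits per 10 kb, beside 0.700 per 10 kb over the chromosome arms. Hr38 had more summits than 90.3% of protein-coding genes, and Hnf4 more than 76.7%, but their windows are long (51.1 and 42.4 kb). In summits per 10 kb of window, Hr38 was above 69.4% of protein-coding genes and Hnf4 above 63.2%. The count for Hnf4 includes a weak peak that overlaps a stronger one, described below. The counts for the family thus lie near those of any gene.

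**Figure D1:**
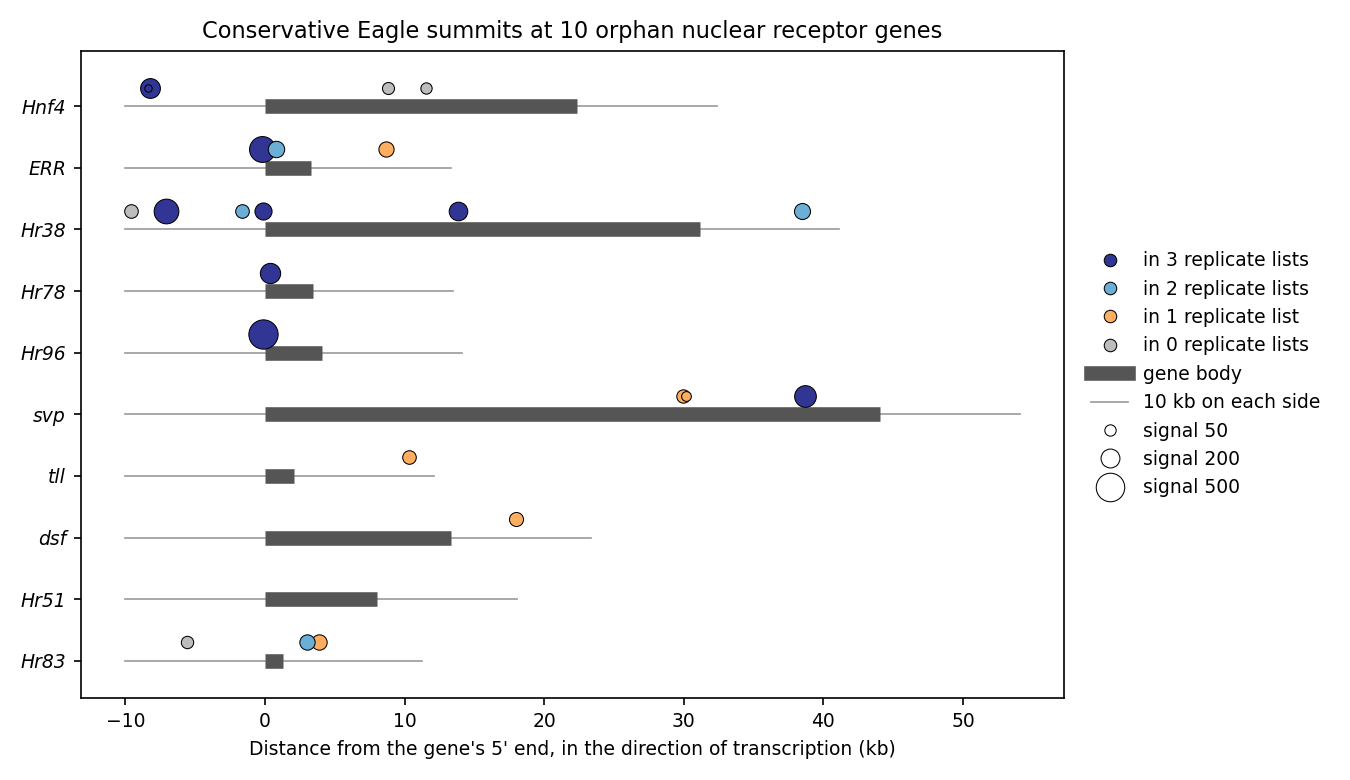
Conservative Eagle summits along each of the 10 genes, in kb from the gene's 5′ end in the direction of transcription; thick bars are gene bodies, thin lines the 10 kb on each side, circle area follows the authors' signal, and colour gives the number of replicate lists that overlap the peak. Peaks in all 3 lists lie at Hnf4, ERR, Hr38, Hr78, Hr96 and svp, and Hr51 has no summit.

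**Figure D2:**
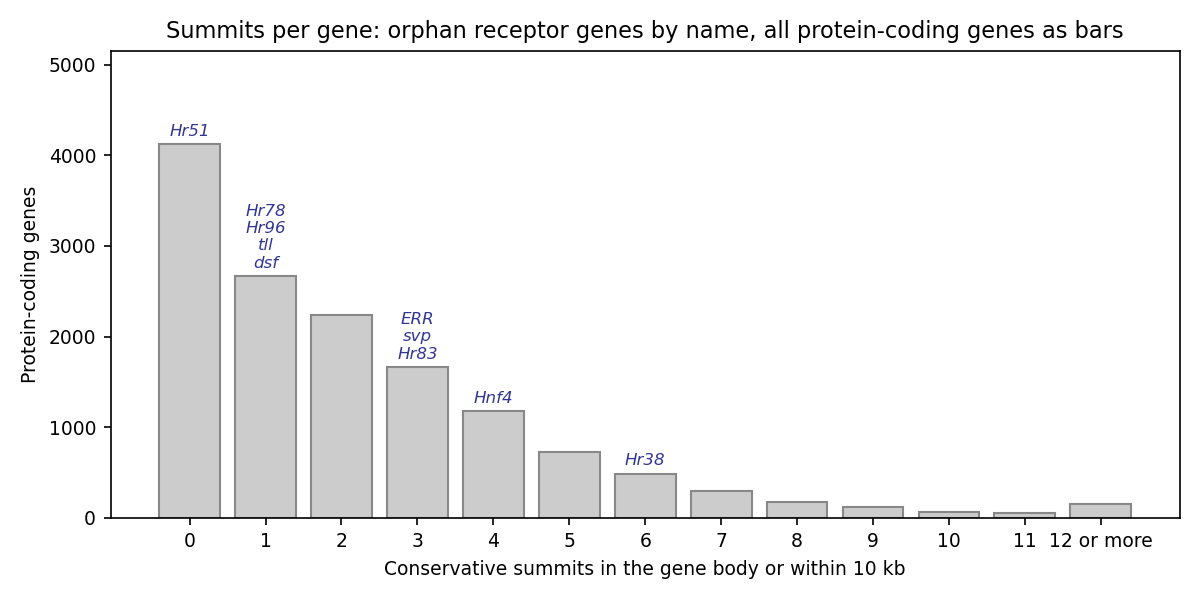
Number of protein-coding genes (bars) by their count of conservative summits in the gene body or within 10 kb, with the 10 receptor genes named above the bar of their own count. Of the receptor genes, 4 have 1 summit, 3 have 3, Hnf4 has 4, Hr38 has 6 and Hr51 has 0.

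Of the 23 summits, 11 (47.8%) lay within 500 bp of an annotated transcription start site (TSS) of any gene, beside 38.2% of all conservative summits. A further 9 (39.1%) were intronic, beside 44.6%, and 3 (13.0%) intergenic, beside 14.0%. The remaining classes, coding exons and untranslated regions more than 500 bp from any TSS, held none. Of the 11 at a TSS, 5 were within 500 bp of a TSS of the receptor gene itself and 6 were only at the TSS of a neighbour. Altogether 15 of the 23 summits were nearer to the TSS of another gene than to one of the receptor gene. Some of the 15 were far from that TSS, such as a svp peak 13933 bp away. The windows of some receptor genes thus hold peaks at the start of a neighbour. The same shares over the windows of all protein-coding genes were not computed, so this is not read as particular to these genes.

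A peak at the own promoter, counted up to 1000 bp from any TSS of the gene, was present at 5 of 10 receptor genes: Hnf4, ERR, Hr38, Hr78 and Hr96. The share over all protein-coding genes was 27.2%. In 4 of them (ERR, Hr38, Hr78 and Hr96) a promoter peak was overlapped in all 3 replicate lists, against 14.8% of all protein-coding genes. In the conservative list, the 5 genes with a promoter peak are those described above as metabolic or hormone-related. There svp, tll, dsf, Hr51 and Hr83 had none, and no role is given above for Hr83. The split is less sharp in other lists: svp had a promoter peak in replicate 3 and in 2 of the other series lists. The conservative promoter peak of Hnf4 was in no thresholded replicate list, though each replicate's own list held another at its promoters. This division by role was drawn up after the results were known and has no test. The roles also overlap, since Hr38 is described below as switched on by neuronal activity too. The match between role and promoter peak is therefore no evidence of a link.

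Hr96 (FBgn0015240, chr3R:25025235-25029351) acts in the response to foreign compounds and in the handling of dietary fat and cholesterol. It had 1 peak, the strongest at any of these genes, with a signal of 529 (rank 649 of the conservative list), at chr3R:25024992-25025209. Its summit lay 138 bp upstream of the Hr96 TSS and 80 bp upstream of the start of EMC6, a subunit of the endoplasmic reticulum membrane protein complex, which is transcribed the other way. The replicates' own signals were 175 in replicate 1, 166 in replicate 2 and 194 in replicate 3 (179 ± 14.4, SD, n = 3). Each is above the median of its own thresholded list (61.5, 66.3 and 64.1 for replicates 1 to 3). The 3 replicate summits fell within 18 bp of each other. In the sequence above the summit is base 80 of the 217 between the 2 starts. That stretch holds TATTTAT in both orientations, and 17.2% of 217 bp windows centred on conservative summits hold the motif at least once. The stretch is not centred on its summit, so this share is not a like measure.

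ERR (FBgn0035849, chr3L:8183361-8186671) drives the larval switch towards the use of sugar as fuel. It had 3 peaks, of which the strongest (chr3L:8186749-8186962, signal 406, rank 1015) lay beside a neighbour that runs the other way: its summit was 203 bp upstream of the ERR TSS and 17 bp inside that neighbour, the autophagy gene Atg18a. Its replicate signals were 161, 111 and 124 in replicates 1, 2 and 3 (132 ± 26.0, SD, n = 3). A further peak, 231 bp upstream of an internal TSS of ERR, had a signal of 143. Its replicate signals were 45.1, 26.9 and 39.4, and it passed the threshold in replicates 1 and 3 only. The remaining peak, with a signal of 118, was downstream of ERR at the promoter of Nmt, which encodes the enzyme that attaches myristate to proteins, with its summit 447 bp from that TSS. It passed in replicate 3 only, where the signal was 71.7, against 27.3 in replicate 1 and 32.2 in replicate 2. The window of ERR thus counts peaks at the starts of Atg18a and Nmt.

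Hr78 (FBgn0015239, chr3L:21494019-21497494), related to the vertebrate testicular receptors, is needed for the hormone response at the onset of metamorphosis. It had 1 peak (chr3L:21496969-21497328, signal 235, rank 2327), with the summit 34 bp downstream of one of its 3 TSSs. The replicate signals were 52.0, 88.4 and 81.5 in replicates 1, 2 and 3 (74.0 ± 19.3, SD, n = 3), so replicate 1 was the low one, yet the 3 replicate summits lay within 15 bp. Of the 4 fully supported promoter peaks, those of Hr78 and Hr38 were nearest to a TSS of the receptor gene, and those of ERR and Hr96 to that of a neighbour. An antisense RNA gene (asRNA:CR43933) is annotated over the same position.

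Hr38 (FBgn0014859, chr2L:20683462-20714588) is the fly member of the NR4A group, can pair with the ecdysone receptor partner Usp, and is known as a gene switched on by neuronal activity. With 6 summits it had the most. At its single TSS a peak lay 122 bp upstream (chr2L:20714530-20714889, signal 158, rank 3932). Replicate signals there were 31.7, 45.3 and 78.5 (51.8 ± 24.1, SD, n = 3), with replicate 3 the highest and replicate 1 the lowest, and all 3 thresholded lists held the peak. The strongest peak of the locus stood 7051 bp upstream (chr2L:20721566-20721766, signal 367, rank 1216), 275 bp before the start of lncRNA:CR45306, a non-coding RNA gene. Its replicate signals of 111, 119.8 and 144 were close together (125 ± 17.1, SD, n = 3) and its summits fell within 21 bp. Another fully supported peak was in the long intron of Hr38, 13835 bp from the TSS and 9343 bp from that of lncRNA:CR44187 (chr2L:20700708-20700798, signal 193), with replicate signals of 59.5, 61.7 and 61.9 (61.0 ± 1.33, SD, n = 3), nearly equal. The other 3 peaks had signals of 135, 88.1 and 87.6. The first of them lay 48 bp inside IKKepsilon, a kinase gene beyond the 3′ end of Hr38, and the last was in no thresholded replicate list.

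Hnf4 (FBgn0004914, chr2L:8687226-8709611) governs the release and burning of stored fat. It had 4 conservative summits, of which 2 were in its introns, one 912 bp upstream and one 1795 bp downstream of an internal TSS. Both were weak, with signals of 61.3 and 49.8, and neither was in a thresholded replicate list. The replicate 1 ranked list held no peak at the first, where replicates 2 and 3 gave 26.8 and 28.6. The other 2 summits were upstream, 202 bp apart, in an intron of the neighbouring gene raw. A TSS of raw was nearer to these summits (3231 and 3433 bp) than any TSS of Hnf4 (8203 and 8405 bp). The first of them (chr2L:8717634-8717993) had a signal of 223 and rank 2518, with replicate signals of 71.3, 74.9 and 77.6 (74.6 ± 3.13, SD, n = 3). The second had a signal of 2.45 and rank 9358, and its peak overlapped the first and matched the same replicate peaks. It adds no site of its own. Over the whole conservative list, 14.8% of peaks overlap another peak of that list.

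The promoter peak of Hnf4 differed between lists. Near the TSSs at 8691209 and 8692400, which lie towards the 3′ end of the gene, the conservative list held no peak, yet every replicate's own list did. In replicate 1 a peak with a signal of 91.6, the highest in the Hnf4 window, had its summit 234 bp from a TSS. In replicate 2 a peak with a signal of 51.2 lay 153 bp from that TSS. In replicate 3 the peaks lay 480 bp and 275 bp from the nearest TSS, with signals of 32.6 and 56.0. The largest of the other series lists, with 11724 peaks, held 4 peaks there with signals of 184, 119.5, 114 and 55.1. Those of 184 and 114 overlap each other and match the same signals in replicates 1 and 2 (91.6 and 51.2), so they may not be separate sites. The smallest other series list also held those of 184 and 114, and the middle one those of 119.5 and 55.1. Series lists give the same signal to the same peak, and the peak of 184 is above both intronic Hnf4 peaks of the conservative list (61.3 and 49.8). Its position (chr2L:8691184-8691543) was overlapped in the thresholded lists of replicates 1 and 2, and in replicate 3 the ranked list gave 32.6 there.

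svp (FBgn0003651, chr3R:12258737-12302785) encodes the fly COUP-TF protein, which sets photoreceptor identity and times the output of neural stem cells. It had 3 conservative summits, all in its introns and none within 1000 bp of a TSS. One was strong and supported in all 3 replicates (chr3R:12297325-12297482, signal 275, rank 1894), 16268 bp downstream of the nearest svp TSS and 13933 bp from that of CG4066. Its replicate signals were 91.1, 112 and 88.6 (97.2 ± 12.8, SD, n = 3) with summits within 21 bp. The other 2 lay 221 bp apart, with signals of 83.6 and 28.7, and matched the same replicate peaks, which passed the threshold in replicate 3 only. Their replicate signals were 15.0, 31.2 and 41.2. At the internal svp promoter, 123 bp upstream of a TSS, the largest other series list held a further peak. It passed the threshold in replicate 3, with 56.3, against 28.3 and 19.3 in the ranked lists of replicates 1 and 2. Of the replicates, replicate 3 alone thus held a promoter peak of svp.

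tll (FBgn0003720, chr3R:30852315-30854400), a patterning gene of the embryo's ends and of the brain, and dsf (FBgn0015381, chr2L:5925937-5939261), its close relative with a part in sexual behaviour, each had 1 weak summit outside the gene body. At tll it stood 8215 bp beyond the 3′ end with a signal of 87.3, at 4906 bp from the TSS of the cuticle protein gene Cpr100A, and passed in replicate 2 only. The replicate signals were 24.7, 42.0 and 33.4 (33.4 ± 8.62, SD, n = 3). At dsf it was 4675 bp beyond the 3′ end with a signal of 95.7, 29 bp from a start of Gpdh1, which encodes glycerol-3-phosphate dehydrogenase. Replicate signals there were 13.7, 30.5 and 56.4 (33.5 ± 21.5, SD, n = 3), and only replicate 3 passed at this peak. Replicate 1 listed a peak of signal 40.4 right beside it, 33 bp from a Gpdh1 TSS. That peak ends at 5943754 and the conservative peak starts at 5943756, so it narrowly missed the 1 bp overlap that counts as support. Neither gene had a summit within 1000 bp of its own TSS in any of the 7 thresholded lists.

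Hr83 (FBgn0037436, chr3R:6349243-6350512), a gene of 1.27 kb, had 3 summits in its window and none in its body. The stronger pair lay downstream in Pak, a kinase gene, with signals of 121 and 120.1. The first was 8 bp from a Pak TSS, with replicate signals of 44.2, 36.5 and 38.9, and passed in replicate 1 only. The second gave 47.5, 47.8 and 50.2, and passed in replicates 1 and 3 though replicate 2 was as high. The remaining one, with a signal of 66.2, was 352 bp from the TSS of CG17919 and in no thresholded replicate list. The ranked lists of replicates 2 and 3 gave 27.8 and 29.6 there.

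Hr51 (FBgn0034012, chr2R:15331325-15339384), also called unfulfilled, is needed in neurons of the mushroom body, the insect learning centre. It was the only gene of the 10 with no conservative summit in its window, and none of the other 3 series lists had one. Of all protein-coding genes, 29.6% had none either. Its nearest conservative summit lay 10605 bp from the gene body, just past the 10 kb limit, with a signal of 231 and support in all 3 replicates, at the start of unc-5, a netrin receptor gene. The closest summit on the inner side of the limit belonged to Hr38, at 9603 bp with a signal of 87.6. The own list of replicate 1 held 1 peak in the window with a signal of 52.6, 804 bp from the unc-5 TSS. In the ranked lists the highest values in the window were 52.6 in replicate 1, 23.0 in replicate 2 and 20.1 in replicate 3.

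**Figure D3:**
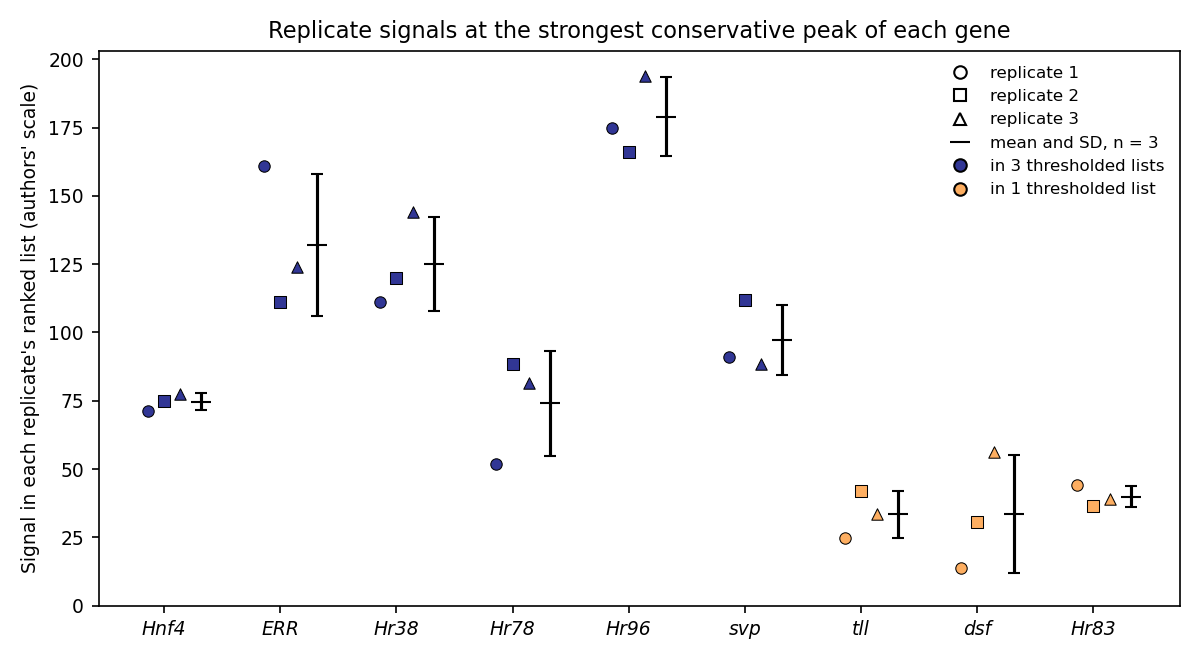
Signal of replicates 1, 2 and 3 at the strongest conservative peak of each gene, from each replicate's own ranked list (authors' scale), with the mean and SD of the 3; colour gives the number of thresholded lists that hold the peak. Hr96 is highest at 166 to 194, and tll, dsf and Hr83 stay at or below 56.4 in all replicates; Hr51 has no conservative peak and is not drawn.

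Replicate support was next set side by side over the 23 peaks. The thresholded lists of all 3 replicates overlapped 9 of them (39.1%), beside 43.8% of all conservative peaks. A further 4 were overlapped in 2 lists, 6 in 1, and 4 in none, where 16.4% of all conservative peaks were in none. Replicate 3 overlapped 17, replicate 1 overlapped 13 and replicate 2 overlapped 11. That is also the order of list length, with 7476, 6213 and 6023 peaks on the main arms. The same shares over all conservative peaks were not computed for single replicates. The ranked lists, which precede the threshold, overlapped 21 of 23 in all 3 replicates, beside 91.5% of all conservative peaks. The 9 fully supported peaks had signals of 158 to 529, except the overlapping copy at Hnf4, and their replicate summits fell within 15 to 100 bp. The median signal was 120.1 over the 23 peaks and 137 over the whole list. Of the 23, 1 peak, that of Hr96 (rank 649), was among the 1000 strongest of the 9370 in the list. The strongest peak of ERR came just after, at rank 1015.

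Each replicate's own thresholded list was also read on its own. There were 19 summits in the windows in replicate 1, 11 in replicate 2 and 21 in replicate 3 (17.0 ± 5.29, SD, n = 3). The lists hold 6213, 6023 and 7476 peaks on the main arms, which is the same order. Yet replicates 1 and 2, with lists of similar length, held 19 and 11 summits. Whether list length goes with these counts was not tested. Receptor genes with a promoter peak numbered 5 in replicate 1, 5 in replicate 2 and 6 in replicate 3, against 20.9%, 21.0% and 24.3% of all protein-coding genes in the same lists. In the largest other series list there were 6, against 30.9% of all protein-coding genes. Hnf4, ERR, Hr38, Hr78 and Hr96 were among them in every list, and svp joined in replicate 3 and in 2 of the other series lists. Hr78 and Hr96 had exactly 1 summit in all 7 lists.

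**Figure D4:**
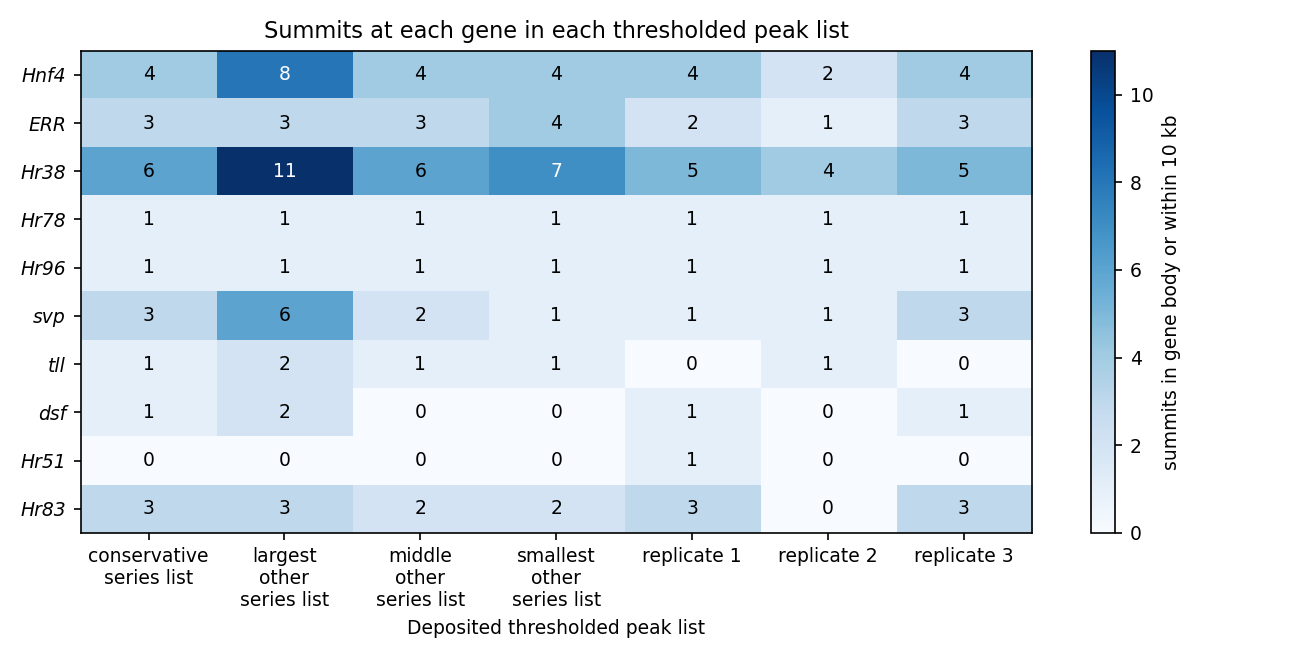
Summits in the gene body or within 10 kb of each gene (rows) in each of the 7 deposited thresholded lists (columns), 4 of the series and 3 of single replicates; numbers and shade both give the count. Hr78 and Hr96 hold 1 in every list, Hr38 ranges from 4 to 11, and Hr51 has 1 in replicate 1 alone.

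Beside these stood the 11 remaining nuclear receptor genes, namely EcR, usp, Eip75B, Eip78C, Hr3, Hr4, Hr39, ftz-f1, kni, knrl and eg. The 10 orphan genes held 23 summits with a median of 2.00 a gene, while those 11 held 120 with a median of 11.0. The orphan genes are shorter, with a median gene length of 6.09 kb against 33.4 kb. Summits per 10 kb were not computed for the 11, so how far length goes with the difference in counts was not tested. All 11 had a summit, led in signal by usp (1227), Hr4 (1118) and Eip75B (884). A promoter peak was present at 5 of the 10 orphan genes and at 9 of the 11, and one overlapped in all 3 replicate lists at 4 of the 10 and at 4 of the 11. Any peak overlapped in all 3 lists was present at 6 of the 10 orphan genes and at 10 of the 11. The strongest signal per gene had a median of 235 over the 9 orphan genes with a peak and of 558 over the 11. Over all protein-coding genes with a peak this median was 274. Among 7 genes for nuclear receptor coregulators, all had a summit and 5 a promoter peak, led by Smr (1874), Gug (937) and tai (724). These differences are given without a test.

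Motifs were then counted on either strand at each of the 23 summits, with 50 bp on each side. AGGTCA, the core of many nuclear receptor sites, was in none, beside 1.76% of all conservative windows. AAGTCA, listed for Tll, was in none, beside 4.93%, and TAGAGCA, listed for Kni, was in none, beside 0.736%. TCAAGGTCA, which contains AGGTCA and is the longer form bound by ERR, was in none, beside 0.0427%. TATTTAT was in 1 (Hr96), beside 9.55%, GAGAGAG in none, beside 3.71%, and TATCGATA in none, beside 0.651%. With 100 bp on each side, TATTTAT was in 5 of 23 windows (21.7%), beside 16.4% of all. AGGTCA was then in 1 (4.35%), beside 3.61%, and GAGAGAG in 2 (8.70%), beside 7.79%. The remaining motifs were in none, beside 9.54% of all windows for AAGTCA and less for the others. A missing match says only that these letters are not in the window. The windows had a median of 31.7% G and C, beside 35.6% over all conservative windows.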

How the data were processed

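Peak lists on dm6 were used as deposited, per the labels and file headers: a thresholded and a ranked list for each of 3 replicates, and 4 thresholded lists of the series, of which the authors call 1 conservative. Per the deposited descriptions, series lists draw on the alignments of all 3 replicates, so replicate support is not independent of them. The signal is the authors' peak strength and is comparable within a list; means over replicates assume similar scales. The deposited score, from the irreproducible discovery rate, served as an alternative cut. The sources used here name no aligner or peak caller, and read depth is unknown. Control libraries that the labels point to were not analysed here.

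The summit is the start plus the offset in column 10. Genes came from Ensembl release 115 (BDGP6 version 6.54), with sequence from RefSeq release 6; all peaks fell within chromosome lengths, and 26 of 26 member start codons read ATG. Support meant an overlap of at least 1 bp. The counting code was tested on simulated peaks. Genes were named by a fixed rule: all 10 members, any gene whose TSS is nearer to a summit, and the 3 genes of highest signal in each comparison list. Outside it, asRNA:CR43933 and unc-5 were named after their values were seen. The members and lists were chosen with earlier results of these data known. No test was run, since there is 1 group. Python 3.11.15, NumPy 2.4.6, pandas 2.3.3 and matplotlib 3.10.9 were used. One sequence is not reported here.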

Additional observations from a re-analysis of the deposited data

How the results depend on the processing

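No paired analysis was possible because the series has 1 group. The 23 summits became 37 in the largest other series list, 8 in gene bodies alone, 15 within 5 kb and 38 within 20 kb. Summits at a promoter of any gene (11) became 17 in the largest list, 2 in gene bodies alone, 7 within 5 kb, 18 within 20 kb and 7 with a 200 bp window. Fully supported summits (9) became 3 in gene bodies alone, 6 within 5 kb, 14 within 20 kb, 6 if peaks had to cover each other by 50%, and 21 with ranked lists. Genes with a summit (9) became 5 in gene bodies alone, and genes with a promoter peak (5) became 3 within 200 bp. Windows with any motif (1) became 8 with 100 bp on each side and 10 over whole peaks. Without 1 replicate, only peaks overlapped in both others were kept. There were then 9 to 12 summits, 6 to 7 genes with a summit, 5 to 7 promoter summits and 4 genes with a promoter peak in each case. At Hnf4 that peak was lost. All summits kept in this way are supported by the rule itself, so the supported count says nothing further here. Counting summits within 360 bp of a stronger one once, an alternative chosen after seeing the data, left 21 summits, 8 fully supported. Strongest signals per gene are copied, not recomputed, in these alternatives, and so say nothing of stability. The files hold no read depth, so a gene without a peak may lie below what was detectable.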
